A study of Mus musculus with 32 samples.

Results

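The comparison described here set whole femur marrow of DTRADQ mice after 1 day of diphtheria toxin (DT) against marrow of DTRADQ mice given no DT. Its members were chosen by title, as the 4 libraries named for DTRADQ and 1 day of DT and the 4 named for DTRADQ without DT, which are 8 of the 32 libraries of the series. The other groups were DTRADQ marrow after 2 and 3 days of DT and, at all 4 time points, marrow of Cre-negative littermate controls. The series' design text gives 4 mice per group, and RNA was counted per gene after SMARTer amplification of total RNA.

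Mice of both groups were 2-month-old C57BL/6 animals that carried a floxed DT receptor (DTR flox) and adiponectin-Cre (ADQ Cre+), so the receptor and the Cre are shared by the DT-treated mice and by their untreated reference. The treated mice received 100 ng of DT per mouse by intraperitoneal injection daily, here for 1 day. Control mice of the series carried DTR flox and no Cre. The labels of the mice without DT name no vehicle, so within DTRADQ mice the toxin and the injection cannot be told apart. The adiponectin promoter drives the Cre, so any cell with a history of its activity can carry the receptor.

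Mouse cells bind DT poorly and become sensitive to it when they carry the primate receptor, after which the toxin inactivates elongation factor 2 and stops protein synthesis. In adult marrow, adiponectin-Cre marks lipid-storing adipocytes and a network of leptin receptor-positive stromal cells, which secrete the chemokine CXCL12, stem cell factor and interleukin 7 that blood stem cells and B cell precursors depend on. Dying tissue in turn draws in neutrophils and monocytes through chemokines such as CXCL1 and CCL2, many of them under NF-kB control, and immediate early genes such as Egr1 and Jun are switched on within the first hours of stimulation or injury.

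The promoters of Cxcl1 and Cxcl2, the pair of neutrophil chemokines that rose most clearly among the genes with a sequence at hand, are shown because both hold the same NF-kB letters. The sequences are the 250 bases before the RefSeq start of each gene on the plus strand of GRCm38.p6, with the motif in capitals (GGGA, any base, then TTTCC).
Cxcl1, chr5:90890995-90891244: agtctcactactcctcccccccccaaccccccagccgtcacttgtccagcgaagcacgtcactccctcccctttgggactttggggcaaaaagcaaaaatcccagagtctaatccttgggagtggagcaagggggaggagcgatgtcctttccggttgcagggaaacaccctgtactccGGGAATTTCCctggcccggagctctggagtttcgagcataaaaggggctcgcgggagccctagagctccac
Cxcl2, chr5:90903649-90903898: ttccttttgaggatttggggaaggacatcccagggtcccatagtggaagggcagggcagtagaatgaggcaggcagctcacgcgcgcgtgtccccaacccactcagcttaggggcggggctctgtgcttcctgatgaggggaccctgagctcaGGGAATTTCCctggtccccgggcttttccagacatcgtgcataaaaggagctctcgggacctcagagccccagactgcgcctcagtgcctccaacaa
The motif was searched on both strands. It begins 71 bases before the start in Cxcl1 (position -71) and 97 bases before it in Cxcl2 (position -97), and 112 of 27025 genes (0.414%) hold it in the same window. Of the 12 named genes with the largest rises 6 had a promoter sequence, and these 2 of the 6 held the motif. The 2 genes are neighbours, so their matches are not separate observations. Of the other motifs searched, CCCNNGGG was held by 2 of the 6 (Egr2 and Cxcl10, 13.4% of all genes). The CArG box was held by 1 (Egr2, 1.62%) and TGANTCA by 1 (Cxcl10, 7.82%). The match describes letters only.

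The 8 libraries held 11095984 to 14600395 counts after DT and 13478787 to 18058416 counts without DT. The marrow was rich in erythroid and myeloid transcripts in both groups. The summed level of 25 erythroid genes lay between 105094 and 153986 CPM (counts per library, scaled to a common depth) after DT and between 69865 and 92787 CPM without DT. Mitochondrial transcripts made up 1.499 to 2.018% of counts after DT and 2.575 to 3.192% without DT, and the part of this difference in any result below was not tested. One DTRADQ mouse without DT, replicate 4, stood apart in genes of muscle and bone. Its 16 skeletal muscle genes summed to 387 CPM against 47.7 to 133 CPM in the other 3 mice without DT, and Col1a1, the collagen of bone, stood at 216 CPM against 28.8 to 43.2 CPM.

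Of 13336 genes tested with the quasi-likelihood test of edgeR at a Benjamini-Hochberg adjusted p under 0.05, 1700 (12.7%) were called, 712 higher (5.34%) and 988 lower (7.41%) after 1 day of DT. The falls were the larger in size: 131 of the 988 lower genes changed at least 4-fold, as did 14 of the 712 higher genes. The 4 values after DT and the 4 without DT did not overlap for 2439 genes (18.3%), 978 higher (7.33%) and 1461 lower (11.0%). The median log2 change over all genes tested was -0.00. Scaling by library totals alone moved that median to -0.18 and the calls to 280 higher and 2539 lower, so small shifts in 1 direction depend on the scaling. The count fell to 1017 without untreated replicate 3 and to 1022 without treated replicate 3.

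Transcripts of the adiponectin lineage stroma fell steeply after 1 day of DT. Of 29 tested genes of this list, 26 fell, 1 rose and 2 did not pass, with a median log2 change of -3.54 against -0.00 over all genes tested. In bulk RNA, fewer cells of a type and less RNA per cell cannot be told apart. Between 25 and 26 of these members were called lower in each of the 9 alternative fits and when each of the 8 libraries was left out in turn. The 2 members that did not pass were Angpt1, angiopoietin 1 (log2 change -0.07, adjusted p = 0.783), and Ptx3, pentraxin 3 (-0.03, adjusted p = 0.951).

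Adipoq, the adiponectin transcript (ENSMUSG00000022878, GRCm38 chr16:23146536-23158028), had 0.882, 0.294, 0.382 and 1.05 CPM in the 4 DTRADQ mice after DT, against 28.8, 33.8, 47.2 and 28.4 CPM in the 4 without DT. Every treated mouse lay far below every untreated mouse. The log2 change was -5.75 (SE 0.29, adjusted p = 1.21e-08). Lepr, the leptin receptor that marks the same stromal cells, had 3.23, 2.13, 4.20 and 0.952 CPM after DT and 36.7, 29.5, 44.8 and 28.5 CPM without DT, again with no overlap, and fell by 3.69 on the log2 scale (SE 0.27, adjusted p = 9.26e-07). Pparg, the adipocyte transcription factor, did not follow. Its level was 24.0, 14.2, 18.3 and 21.3 CPM after DT and 20.7, 20.3, 26.4 and 13.6 CPM without DT, groups that overlap, with a log2 change of -0.06 (SE 0.19, adjusted p = 0.865) whose sign turned without untreated replicate 3 (0.10) or treated replicate 2 (0.07).

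Factors that support blood cells moved both ways. Of 12 tested niche factors, 4 fell, 2 rose and 6 did not pass. Cxcl12, Kitl, Il7, Il34 and Vcam1 also belong to the stroma list above, so the counts of the lists overlap. The count of falls was 4 without each single library, and that of rises was 1 without untreated replicate 3 or treated replicate 2 or 4 and 0 without treated replicate 3. Cxcl12 (ENSMUSG00000061353, chr6:117168535-117181367), which holds stem cells and B cell precursors in the marrow, had 19.1, 22.7, 22.4 and 18.9 CPM after DT against 403, 400.3, 462 and 298 CPM without DT. The treated values sat close together and far below the untreated ones (log2 change -4.23, SE 0.14, adjusted p = 3e-10). Kitl, stem cell factor, had 11.5, 13.3, 22.8 and 14.0 CPM after DT and 49.2, 47.3, 57.7 and 41.0 CPM without DT, a smaller fall of 1.66 on the log2 scale (SE 0.18, adjusted p = 4.25e-05). Il7, the growth factor of B cell precursors, stood at 0.147, 0.221, 0 and 0.286 CPM after DT, from 8 counts in all, and at 2.30, 1.42, 1.83 and 1.03 CPM without DT (log2 change -3.32, SE 0.51, adjusted p = 0.00097). Il34, a ligand of the CSF1 receptor, fell by 4.10 (SE 0.38, adjusted p = 8.11e-06).

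The niche factors that rose were Vcam1, an adhesion molecule of stroma, endothelium and macrophages, and Tnfsf13b, the B cell survival factor BAFF. Vcam1 had 647, 544, 780.5 and 697 CPM after DT and 437, 456, 509.6 and 265 CPM without DT, with no overlap (log2 change 0.68, SE 0.17, adjusted p = 0.0186). Its call was lost without treated replicate 3 (0.61, adjusted p = 0.0605) and with library totals alone. Tnfsf13b rose by 0.55 (SE 0.15, adjusted p = 0.0286) and lost its call without untreated replicate 3 or 4 or without treated replicate 2, 3 or 4 (0.46 to 0.56, adjusted p from 0.0556 to 0.0847). Hbegf, the mouse gene of the protein that serves as the DT receptor, had 0.809, 1.40, 0.688 and 0.857 CPM after DT and 2.14, 2.15, 3.19 and 1.57 CPM without DT (log2 change -1.25, SE 0.31, adjusted p = 0.0184). Its call was lost without untreated replicate 3 (-1.05, adjusted p = 0.0664) or treated replicate 3 (-1.12, adjusted p = 0.0637), and whether reads of the receptor transgene were counted under this gene was not tested.

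Antagonists of BMP and WNT signalling were among the deepest falls. Of 7 tested BMP antagonists 5 fell and none rose (median log2 change -1.82), and of 5 secreted WNT inhibitors and RANKL axis genes 2 fell and none rose. Grem1, Chrdl1, Fstl1, Sfrp1 and Sfrp4 also belong to the stroma list above, so these counts are not separate from its count. Grem1, gremlin 1, which binds BMP2 and BMP4, had 0.294, 0.221, 0.0764 and 0 CPM after DT, from 8 counts in all, against 8.98, 7.98, 12.1 and 8.07 CPM without DT (log2 change -5.81, SE 0.37, adjusted p = 1.7e-07). Chrdl1, chordin-like 1, had 0.368, 0.589, 0.917 and 0.571 CPM after DT against 25.4, 23.2, 26.7 and 14.2 CPM without DT (log2 change -5.17, SE 0.27, adjusted p = 1.89e-08). No value of one group came near the other for these antagonists. Fstl1, a follistatin-like secreted protein, fell by 1.82 (SE 0.12, adjusted p = 1.7e-07).

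The WNT inhibitor Sfrp4, a secreted frizzled-related protein, had 1.03, 1.40, 0.993 and 0.952 CPM after DT and 24.6, 25.8, 34.8 and 15.9 CPM without DT (log2 change -4.51, SE 0.25, adjusted p = 4.51e-08). Its relative Sfrp1 fell by 3.88 (SE 0.48, adjusted p = 0.000139), or -4.95 without treated replicate 2. Of 6 tested BMP target genes only Id4, an inhibitor of DNA binding, passed (-3.37, SE 0.46, adjusted p = 0.000372), and Id1, the most widely used readout of BMP signalling, did not (0.39, SE 0.13, adjusted p = 0.0676). A count of 1 in 6 is near the 12.7% of all genes.

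Other genes fell as far, of which Igfbp5 and Esm1 belong to the stroma list. The others given here were named for the size of their fall, and which cells made them was not tested. Igfbp5, which binds insulin-like growth factors, had 1.544, 2.723, 1.452 and 1.333 CPM after DT against 66.1, 68.5, 80.5 and 95.1 CPM without DT (log2 change -5.44, SE 0.21, adjusted p = 7.49e-10). Serpina3c, a serine protease inhibitor, had 1, 0, 0 and 1 counts after DT and 76, 55, 78 and 30 counts without DT. The ratio of its summed CPM was 0.0099 (exact 95% interval 0.00119 to 0.0362, counting error only), and its fitted log2 change was -6.21 (SE 0.59, adjusted p = 8.86e-06). The remaining members of the 12 largest falls were Dpep1, a dipeptidase (-5.51), Fmo2, a flavin monooxygenase (-4.88), Kng2, a kininogen (-4.86), Slc26a7, an anion transporter (-4.82), Esm1, an endocan (-4.76), and Gdpd2, a phosphodiesterase (-4.74, or -5.38 without treated replicate 2). All 6 had separate groups and adjusted p between 9.27e-09 and 4.31e-06.

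**Figure D1:**
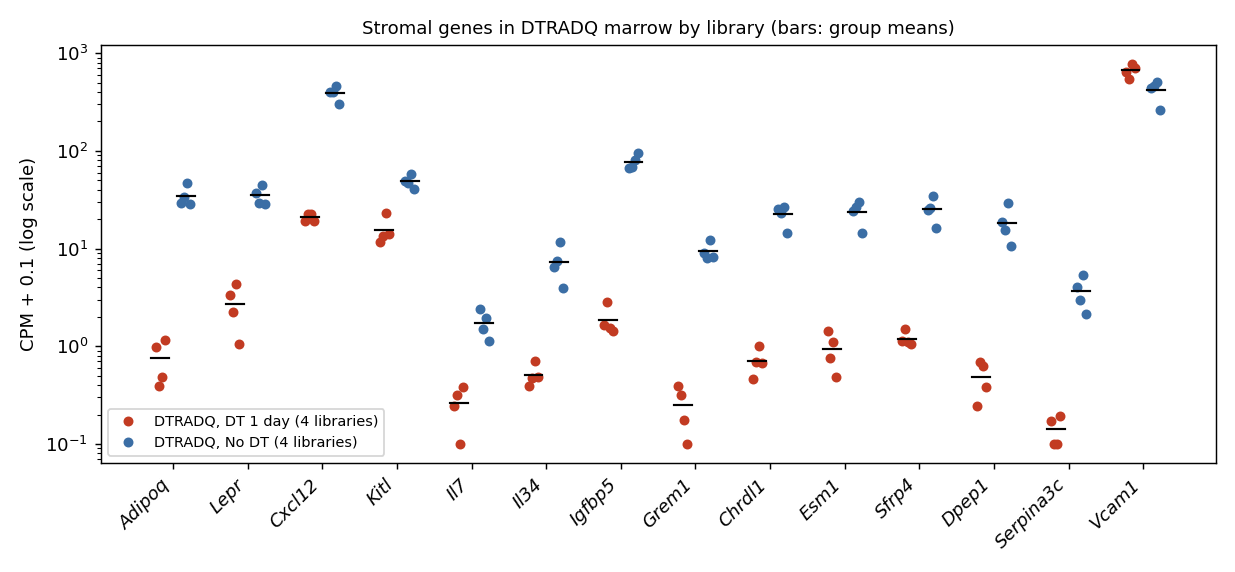
Level of 14 genes in each of the 8 DTRADQ libraries, as CPM plus 0.1 on a log scale. Treated mice (1 day of DT) stand left of untreated mice for each gene, with group means as bars. All but Dpep1 and Serpina3c belong to the stroma list. 13 genes lie lower in all 4 treated libraries than in all 4 untreated ones, and Vcam1 lies higher.

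Bone genes fell in part. Of 14 tested osteoblast and osteocyte genes 5 fell, none rose and 9 did not pass (median log2 change -1.27). Ibsp, bone sialoprotein, had 23.01, 16.6, 24.1 and 18.1 CPM after DT against 142, 145, 235 and 173 CPM without DT, with no overlap (log2 change -3.08, SE 0.18, adjusted p = 5.02e-08). Ogn, osteoglycin, fell by 2.42 (SE 0.19, adjusted p = 1.81e-06). Phex, an osteocyte endopeptidase that regulates phosphate, fell by 3.53 (SE 0.62, adjusted p = 0.0024), or -5.71 without treated replicate 4, which held 6 of its 7 treated counts.

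The classical osteoblast product Bglap, osteocalcin, whose reads can be shared with its copy Bglap2, was not called. It had 3.90, 4.42, 1.15 and 3.71 CPM after DT and 2.56, 3.57, 3.19 and 21.1 CPM without DT. The high untreated value is that of replicate 4, and the log2 change of -1.19 (adjusted p = 0.208) turned to 0.11 (adjusted p = 0.878) without it. Spp1, osteopontin, had 329, 297, 301 and 219 CPM after DT and 112, 101, 188 and 273 CPM without DT. Its log2 change of 0.76 (SE 0.25, adjusted p = 0.0594) did not pass. It was called without untreated replicate 4 (1.12, adjusted p = 0.00221) and with voom, no filter, the 4 DTRADQ groups or 30 libraries in the model (0.77 to 1.00, adjusted p from 2.45e-06 to 0.034). Ctsk, the collagenase of osteoclasts, was the 1 gene of 10 tested in the osteoclast list to fall (-2.16, SE 0.43, adjusted p = 0.00532, or -1.63 without untreated replicate 4). Untreated replicates 3 and 4 held 44.2 and 64.9 CPM of it, against 15.2 and 13.2 CPM in replicates 1 and 2. All 4 treated mice, at 7.35, 6.62, 10.9 and 5.81 CPM, lay below these. A count of 1 in 10 is near the 7.41% of all genes called lower.

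The skeletal muscle list shows how far a count can depend on which libraries are in the fit. Of its 11 tested genes 7 were called lower, and without untreated replicate 4 this count was 1. The same count of 1 was reached without treated replicate 1 or 3, and 2 remained without untreated replicate 3 or treated replicate 4. The 16 listed genes summed to 44.9 to 67.8 CPM after DT, and untreated replicates 1 and 2 held 64.5 and 47.7 CPM.

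Chemokines rose together with a subset of immediate early genes. Of 16 tested chemokines 7 rose, against 5.34% of all genes, 1 fell and 8 did not pass (median log2 change 0.47). Cxcl1, a neutrophil attractant (ENSMUSG00000029380, chr5:90891241-90893115), had 1198, 1008, 2299 and 644 counts after DT against 3, 3, 2 and 2 counts without DT. In CPM this was 88.1, 74.2, 176 and 61.3 after DT and 0.157, 0.158, 0.136 and 0.137 without DT. The untreated level lay at or under the 3 counts per library taken as the floor, and the lowest treated mouse held 61.3 CPM. The log2 change was 9.32 (SE 0.44, adjusted p = 9.27e-09) and the ratio of summed CPM 609 (exact 95% interval 331 to 1270).

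Its neighbour Cxcl2 had 7.72, 8.90, 10.6 and 5.43 CPM after DT against 0.313, 0.368, 0.814 and 0.205 CPM without DT (log2 change 4.27, SE 0.33, adjusted p = 1.59e-06). Both genes carry the GGGAATTTCC letters printed above. Ccl2, the main attractant of CCR2-bearing monocytes, had 79.3, 73.2, 158 and 63.4 CPM after DT against 3.18, 1.58, 5.43 and 3.42 CPM without DT (log2 change 4.80, SE 0.34, adjusted p = 5.51e-07). Ccl7, a second ligand of CCR2, rose by 4.34 (SE 0.31, adjusted p = 6.33e-07). Cxcl10, an attractant of T cells, rose by 1.85 (SE 0.33, adjusted p = 0.00262). Treated replicate 3 was the highest library for each of these 5 chemokines, and all 5 calls held without it. Ccl9 was the chemokine that fell (-0.77, SE 0.20, adjusted p = 0.0211), and lost its call without untreated replicate 3 (adjusted p = 0.0528) or 4 (adjusted p = 0.0555).

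Of 20 tested immediate early genes 6 rose, 2 fell (1 without treated replicate 2, 3 or 4) and 12 did not pass. Egr1, a zinc finger factor of the first hours after stimulation, had 24.7, 20.9, 48.5 and 21.6 CPM after DT against 1.93, 2.84, 7.06 and 3.35 CPM without DT (log2 change 2.96, SE 0.35, adjusted p = 8.95e-05). Its relative Egr2 had 3.97, 3.97, 10.5 and 3.33 CPM after DT against 1.04, 0.420, 0.611 and 0.479 CPM without DT (log2 change 3.06, SE 0.41, adjusted p = 0.000314). Jun, a subunit of AP-1, had 11.9, 14.3, 25.2 and 12.2 CPM after DT against 2.66, 1.84, 2.44 and 2.81 CPM without DT (log2 change 2.71, SE 0.25, adjusted p = 6.77e-06). In all 3 genes the groups were separate, and treated replicate 3 stood highest.

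Fos, the usual partner of Jun, did not pass (0.98, SE 0.32, adjusted p = 0.0607). The falls were Klf4 (-0.85, SE 0.13, adjusted p = 0.000862) and Klf2 (-0.67, SE 0.17, adjusted p = 0.0203), Krüppel-like factors of monocytes and endothelium. The call of Klf2 was lost without treated replicate 2, 3 or 4 (adjusted p from 0.052 to 0.0707). Atf3, a stress-induced factor, rose by 1.71 (SE 0.29, adjusted p = 0.00175). The list of the integrated stress response to which it also belongs had 2 rises and 1 fall among 13 genes. Over all genes 5.34% were called higher and 7.41% lower, so these counts are near the shares. Gdf15, a stress cytokine counted among p53 targets, had 13, 13, 15 and 13 counts after DT against 1, 3, 2 and 2 counts without DT (log2 change 3.08, SE 0.44, adjusted p = 0.000529). It was the 1 gene called among 14 tested p53 targets, while 12.7% of all genes were called.

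Of 15 inflammatory cytokine and NF-kB feedback genes 5 rose, against 5.34% of all genes, and none fell. Nfkbia, the NF-kB inhibitor that NF-kB itself induces, had 123, 121, 135 and 134 CPM after DT and 99.8, 90.1, 85.7 and 77.4 CPM without DT (log2 change 0.54, SE 0.10, adjusted p = 0.00283). Icam1, an endothelial and myeloid adhesion molecule (0.78, SE 0.16, adjusted p = 0.00702), and Il1a, interleukin 1 alpha (0.68, SE 0.14, adjusted p = 0.0062), rose with no overlap of the groups. The changes of this list were small beside those of the chemokines. Its count was 3 without untreated replicate 3 or without treated replicate 2 or 3, and 1 with all 8 groups in the model.

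**Figure D2:**
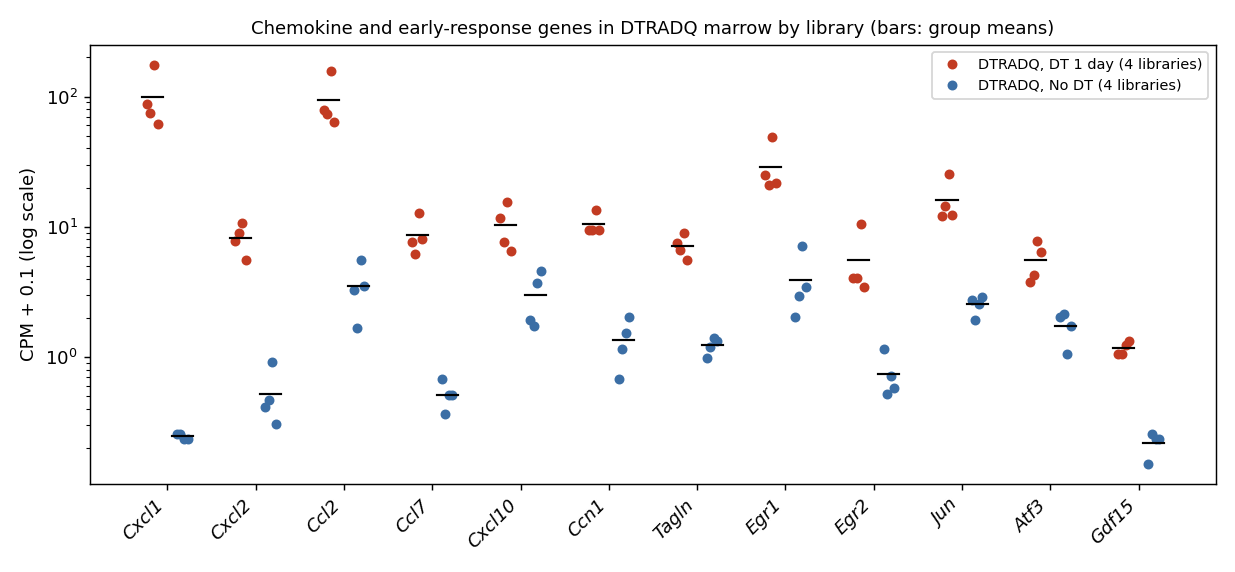
Level of 12 chemokine, early-response and contractile genes in each of the 8 DTRADQ libraries, as CPM plus 0.1 on a log scale, with treated mice (1 day of DT) left of untreated mice and group means as bars. The groups are separate for every gene shown, and treated replicate 3 (the third point from the left) is the highest treated library for Cxcl1, Ccl2, Egr1, Egr2 and Jun.

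Matrix and contractile genes moved both ways. Of 22 tested, 5 rose, 7 fell and 10 did not pass. Ccn1, a matricellular protein also induced as an early gene, had 9.41, 9.35, 13.4 and 9.33 CPM after DT against 0.574, 1.05, 1.43 and 1.92 CPM without DT (log2 change 3.09, SE 0.28, adjusted p = 5.12e-06). Tagln, the actin-binding protein transgelin, had 7.42, 6.55, 8.86 and 5.43 CPM after DT against 0.887, 1.10, 1.29 and 1.23 CPM without DT (log2 change 2.65, SE 0.22, adjusted p = 2.83e-06). No value of one group reached the other for either gene.

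Other genes of this list fell. Fbn1, fibrillin 1, fell by 2.50 (SE 0.21, adjusted p = 2.29e-06). Lox, the collagen cross-linking enzyme, fell by 2.67 (SE 0.30, adjusted p = 6.05e-05), and Tnc, tenascin C, by 1.33 (SE 0.12, adjusted p = 4.5e-06). All 3 had separate groups. Acta2, smooth muscle actin, did not pass (0.27, SE 0.24, adjusted p = 0.49).

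Some lipid genes outside the stroma list rose. Of 14 tested genes of adipocytes and lipid storage 5 rose, 2 fell and 7 did not pass (median log2 change 0.14), and of 14 PPAR targets of fatty acid use 5 rose, none fell and 9 did not pass (median 0.32). Neither of the 2 genes that fell kept its call without untreated replicate 4 or treated replicate 1 or 2. Only 1 of them did without untreated replicate 2 or treated replicate 3 or 4. Plin2, which coats lipid droplets in many cell types, had 214, 338, 300.5 and 291 CPM after DT and 164, 152, 142 and 167 CPM without DT (log2 change 0.87, SE 0.13, adjusted p = 0.0006). Slc25a20, the mitochondrial carnitine carrier, had 44.4, 57.5, 52.1 and 39.6 CPM after DT and 24.6, 24.3, 25.9 and 20.5 CPM without DT (log2 change 1.02, SE 0.12, adjusted p = 0.000123). Both genes kept separate groups. Cpt1a, the entry enzyme of mitochondrial fatty acid oxidation, rose by 0.63 (SE 0.14, adjusted p = 0.0117) with groups that meet at 50.2 CPM.

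Among the lipid storage genes, Slc2a4, a glucose transporter, rose by 0.69 (SE 0.12, adjusted p = 0.00214), and Cd36, a fatty acid transporter, by 0.76 (SE 0.14, adjusted p = 0.0032). Erythroid precursors also express both, erythroid genes rose in the same mice, and their part in these rises was not tested. Lpl, lipoprotein lipase, which belongs to the stroma list and to neither of these lists, fell by 0.91 (SE 0.13, adjusted p = 0.000442). Cfd, adipsin, stood at 0.809, 0.147, 1.99 and 3.14 CPM after DT and at 2.40, 5.46, 2.58 and 5.54 CPM without DT (-1.44, SE 0.52, adjusted p = 0.0804), and its call appeared without treated replicate 4 (-2.03, adjusted p = 0.033). Adipocyte genes such as Plin1, Lep and Cidec were too low to be tested. Without treated replicate 3 each of the 2 lists had 3 rises.

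Blood cell lists changed less per gene. Of 25 tested erythroid genes 17 rose and none fell, with a median log2 change of 0.53 and a highest of 1.08. Alas2, the first enzyme of haem synthesis in red cells, had 6674, 5765, 8338 and 10061 CPM after DT against 3995, 3128, 3852 and 3616 CPM without DT (log2 change 1.08, SE 0.17, adjusted p = 0.000966). Slc4a1, the red cell anion exchanger band 3, rose by 0.74 (SE 0.13, adjusted p = 0.00197), and Add2, a protein of the red cell membrane skeleton, by 0.66 (SE 0.11, adjusted p = 0.0022). The 17 calls became 10 with library totals alone and 2 with all 8 groups in the model, and the near-identical haemoglobin genes of the list can share reads.

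Monocyte genes fell in part. Of 14 tested, 6 fell and 1 rose, against 7.41% and 5.34% of all genes. Cx3cr1, the fractalkine receptor of patrolling monocytes, had 17.9, 16.8, 19.5 and 18.6 CPM after DT and 41.9, 42.4, 33.3 and 28.7 CPM without DT, with no overlap (log2 change -1.01, SE 0.13, adjusted p = 0.000215). Ccr2, the receptor of Ccl2 and Ccl7 on classical monocytes, had 224, 250.2, 239.8 and 178 CPM after DT and 364, 418, 287 and 526 CPM without DT (log2 change -0.84, SE 0.16, adjusted p = 0.00437). So the ligands rose and the transcript of their receptor fell in the same mice. Ly6c2, a surface marker of classical monocytes, did not pass (-0.02, SE 0.12, adjusted p = 0.921). Cd14 rose (0.53, SE 0.16, adjusted p = 0.0469), a call lost in 7 of the 8 fits that leave out 1 library, all but that without treated replicate 1 (adjusted p from 0.0747 to 0.155).

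Lymphoid genes fell in the T and NK cell list, with 8 of 21 lower, against 7.41% of all genes, and none higher. Gzma, granzyme A of cytotoxic cells, had 17.5, 24.3, 18.9 and 20.6 CPM after DT and 32.5, 39.4, 38.8 and 40.0 CPM without DT (log2 change -0.89, SE 0.12, adjusted p = 0.000406). Klrd1, the NK cell receptor CD94, fell by 0.65 (SE 0.13, adjusted p = 0.00475), and Trac, the constant region of the T cell receptor alpha chain, fell by 1.14 (SE 0.24, adjusted p = 0.00785). The count was 5 without untreated replicate 3 or without treated replicate 3, and 0 with all 8 groups in the model. None of 18 tested B cell precursor genes passed by edgeR (median 0.27), and 6 rose without treated replicate 2. Of 10 eosinophil genes 1 rose (median 0.57), while 5.34% of all genes were called higher. The eosinophil rises were 6 without untreated replicate 2, 3 without treated replicate 1 and 0 without untreated replicate 3 or treated replicate 4.

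Other lists are given beside the 5.34% of all genes called higher and the 7.41% called lower. Of 20 megakaryocyte and platelet genes 7 rose, among them Itga2b, the platelet integrin alpha IIb (0.69, SE 0.16, adjusted p = 0.0125), and Nrgn, neurogranin (0.79, SE 0.18, adjusted p = 0.0126). That count was 2 without treated replicate 3, 3 without treated replicate 2, 4 without untreated replicate 4 and 2 with library totals alone. Of 16 genes of resident marrow macrophages 4 rose, and 0 without treated replicate 3 or with library totals alone. The 18 interferon response genes had 3 rises and 3 falls. The rises were 1 without untreated replicate 2 or 3 or treated replicate 3, and 5 without treated replicate 2. Among them were Rsad2, an antiviral enzyme, which rose by 0.76 (SE 0.13, adjusted p = 0.00254), and Mx1, an antiviral GTPase, at -0.87 (SE 0.21, adjusted p = 0.0152).

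Of 20 mitosis genes 6 rose and of 22 DNA replication genes 4 rose. Kif20a, a kinesin of cell division, rose by 0.48 (SE 0.10, adjusted p = 0.00651), and Rrm2, the regulated subunit of ribonucleotide reductase, by 0.57 (SE 0.11, adjusted p = 0.00333). The mitosis count was 2 without treated replicate 3 and the replication count 2 without treated replicate 4, and each was 1 with library totals alone. Of 21 endothelial genes 3 fell and 1 rose, with Kdr, the VEGF receptor 2, at 5.44, 4.49, 5.50 and 2.76 CPM after DT and 7.78, 8.40, 9.71 and 9.31 CPM without DT (log2 change -0.94, SE 0.19, adjusted p = 0.0068). The endothelial rise was lost in 7 of the 8 fits that leave out 1 library, and the count of falls was 1 without untreated replicate 3 and without treated replicate 2 or 4. Over all genes 5.34% were called higher and 7.41% lower, and 1 rise in 21 is near that share. No gene of 17 in cholesterol synthesis and uptake passed.

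**Figure D3:**
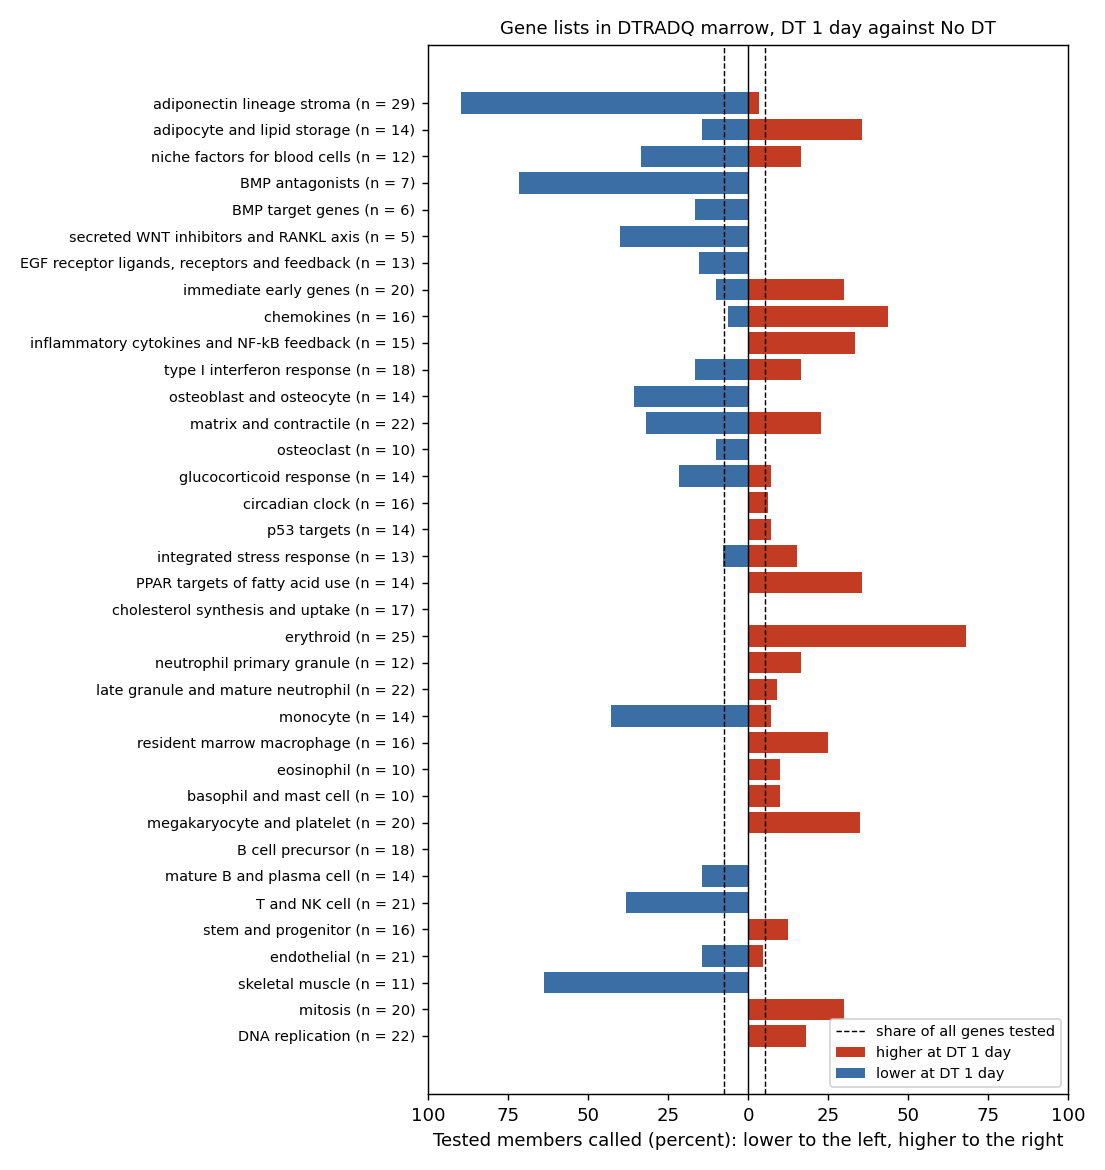
Share of the tested members of 36 gene lists called higher (right) or lower (left) after 1 day of DT, with the number tested in brackets and dashed lines at the shares over all genes, 5.34% higher and 7.41% lower. The stroma list reaches 26 of 29 on the lower side, and the erythroid list 17 of 25 on the higher side.

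To see which changes were tied to the receptor, the same day of DT was measured in Cre-negative controls, and the difference between the genotypes was tested in 1 model of both genotypes with and without DT (4 mice in each group). In controls 3352 of 13960 genes (24.0%) were called after 1 day of DT, 1638 higher (11.7%) and 1714 lower (12.3%), and the difference between genotypes was called for 454 (3.25%), 213 with a more positive (1.53%) and 241 with a more negative (1.73%) change in DTRADQ. Untreated control replicates 3 and 4 stood apart, with 37.4% and 50.7% of counts in their 10 highest genes against 22.7% and 28.6% in the other untreated controls. Without these 2 libraries 2370 of 14475 genes (16.4%) were called in controls, 1130 higher (7.81%) and 1240 lower (8.57%), and the difference was called for 1057 (7.30%), 506 more positive (3.50%) and 551 more negative (3.81%). DTRADQ mice set against controls on the same day of DT differed in 273 genes (1.96%), 48 higher (0.344%) and 225 lower (1.61%) in DTRADQ.

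Of the 712 genes that rose in DTRADQ, 231 also rose in controls, which is 32.4% of the DTRADQ list and 14.2% of the control list, and 25 fell there. Of the 988 that fell in DTRADQ, 297 also fell in controls, 30.1% of the DTRADQ list and 17.7% of the control list, and 25 rose. Without the 2 untreated control libraries the shared falls were 139 and the shared rises 196. The genotype difference was called in the same direction for 38 of the 712 rises and 148 of the 988 falls, or for 111 and 289 without those libraries.

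The falls of stromal genes differed between the genotypes. Of 29 stroma genes 22 had a more negative change in DTRADQ than in controls, and 23 without the 2 libraries. In controls themselves 3 of the 29 rose and 4 fell, or 0 and 1 without the 2 libraries. Cxcl12 changed by 0.15 in controls (SE 0.21, adjusted p = 0.644), and its difference was -4.36 (SE 0.31, adjusted p = 1.37e-07), or -4.60 without the 2 libraries. For Adipoq the difference was -4.93 (SE 0.52, adjusted p = 1.53e-05), for Lepr -4.28 (SE 0.39, adjusted p = 2.59e-06) and for Kitl -2.10 (SE 0.27, adjusted p = 0.000188). These 4 differences kept their calls in each alternative fit and without each single library.

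The differences of Ccl2, Ccl7, Cxcl2, Egr1 and Jun also kept their calls in these fits. Ccl2 differed by 4.99 (SE 0.51, adjusted p = 1.16e-05), Ccl7 by 5.08 (SE 0.56, adjusted p = 2.76e-05), Cxcl2 by 3.79 (SE 0.69, adjusted p = 0.00524), Egr1 by 3.49 (SE 0.50, adjusted p = 0.000536) and Jun by 3.29 (SE 0.50, adjusted p = 0.00106). Cxcl2 differed by 3.11 without untreated control replicate 2. Cxcl1 differed by 9.29 (SE 1.41, adjusted p = 0.00106), between 8.32 and 10.07 when each library was left out, and this call was lost with all 8 groups in the model (9.32, adjusted p = 0.143). Cxcl10 differed by 2.18 (SE 0.58, adjusted p = 0.0458), a call lost in 12 of 16 fits that leave out 1 library (adjusted p from 0.0538 to 0.107) and with library totals only (adjusted p = 0.0713). The level of Cxcl1 in controls was 0.31, 0.13, 0.63 and 0 CPM after DT and 0.48, 0, 0.27 and 0.18 CPM without DT.

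Gdf15 went the same way in both genotypes, with a log2 change of 3.23 (SE 0.78, adjusted p = 0.00687) in controls and a difference of -0.14 (SE 1.32, adjusted p = 0.962), an estimate whose SE leaves room for a difference of several fold. Add2 rose in both as well (1.00 in controls, SE 0.17, adjusted p = 0.00128), and Vcam1 changed by 0.75 in controls (SE 0.23, adjusted p = 0.0237, or 0.0524 without untreated control replicates 3 and 4). Cx3cr1 parted the genotypes. In controls it rose by 1.12 (SE 0.25, adjusted p = 0.00421), or by 0.66 (adjusted p = 0.0229) without untreated control replicates 3 and 4, and the difference was -2.11 (SE 0.35, adjusted p = 0.00248), or -1.66 (adjusted p = 0.00066) without untreated control replicates 3 and 4. Of the 25 erythroid genes 4 rose and 5 fell in controls (median 0.12), or 10 rose and none fell without untreated control replicates 3 and 4 (median 0.32), and the difference was called for 2 in either case. Other blood lists differed more, always more positive in DTRADQ. Of 10 eosinophil genes 5 fell in controls, and the difference was called for 5, or 7 without the same libraries. Of 20 megakaryocyte and platelet genes 2 rose and 6 fell in controls, with 4 differences, or 8. Of 22 late granule and mature neutrophil genes 2 rose and 8 fell in controls, with 3 differences, or 7. In controls 5 of 20 mitosis genes rose and 1 fell, 7 of 22 DNA replication genes rose, and 3 of 14 PPAR targets of fatty acid use rose. Over all genes 11.7% rose and 12.3% fell in controls. The difference was called for 0 genes of each of these lists. A count of 0 is near the 3.25% of all genes and does not show that a change was shared. Without untreated control replicates 3 and 4 the difference was called for 2 PPAR targets, more positive in DTRADQ. It was also called for 1 replication gene, more negative, and for 7.30% of all genes.

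**Figure D4:**
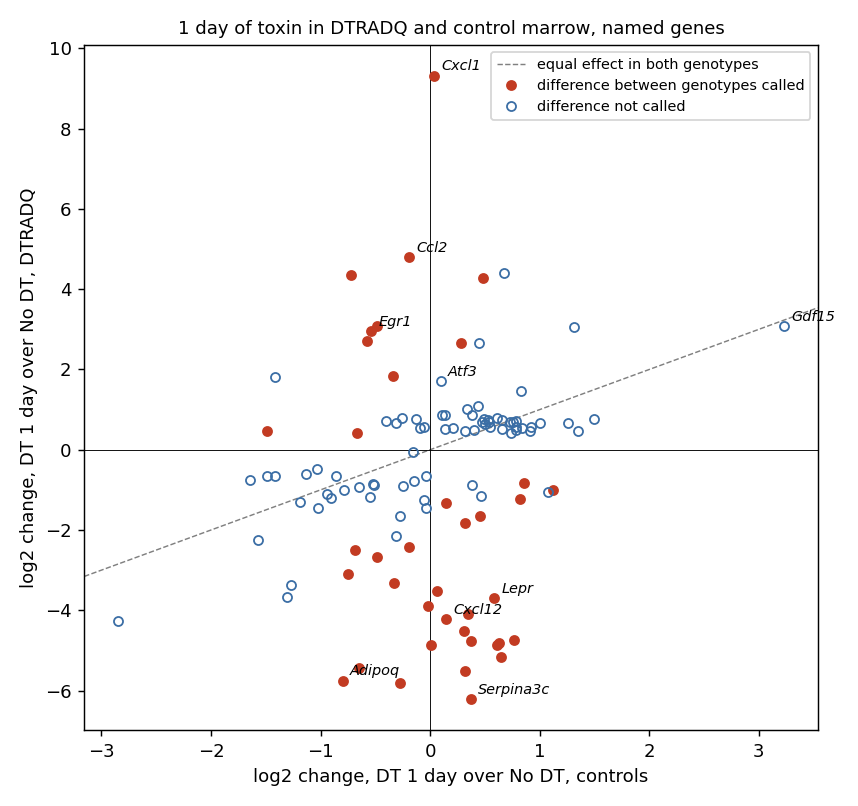
Log2 change after 1 day of DT in controls (x axis, model of both genotypes) and in DTRADQ (y axis, DTRADQ libraries alone) for the 113 named genes, with filled points where the difference between genotypes was called (39 genes) and a dashed line of equal effect. Most genes of the stroma list lie far below 0 on the y axis and closer to 0 on the x axis. Cxcl1 lies far above 0 on the y axis, and Gdf15 lies on the line.

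The later days, which share the untreated mice with day 1, are given as levels only. Cxcl12 stayed low, at 18.9 to 22.7 CPM on day 1, 30.04 to 44.39 CPM on day 2 and 20.50 to 32.04 CPM on day 3, against 298 to 462 CPM in the mice without DT. Cxcl1 lay between 0.136 and 0.158 CPM in the mice without DT and between 61.3 and 176 CPM on day 1. On day 2 it lay between 0.53 and 1.59 CPM in 3 of 4 mice, above the mice without DT, while the library labelled DT 2 days replicate 1 held 73.2 CPM. On day 3 Cxcl1 lay between 0.20 and 1.48 CPM. Egr1 showed the same order, with 20.9 to 48.5 CPM on day 1, 2.99 to 4.62 CPM in 3 mice and 20.8 CPM in replicate 1 on day 2, and 3.44 to 5.94 CPM on day 3. Tagln moved the other way, at 5.43 to 8.86 CPM on day 1, 9.91 to 33.7 CPM on day 2 and 44.9 to 82.4 CPM on day 3. Cx3cr1 lay between 16.8 and 19.5 CPM on day 1, 15.8 and 33.9 CPM on day 2 and 16.82 and 25.05 CPM on day 3.

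**Figure D5:**
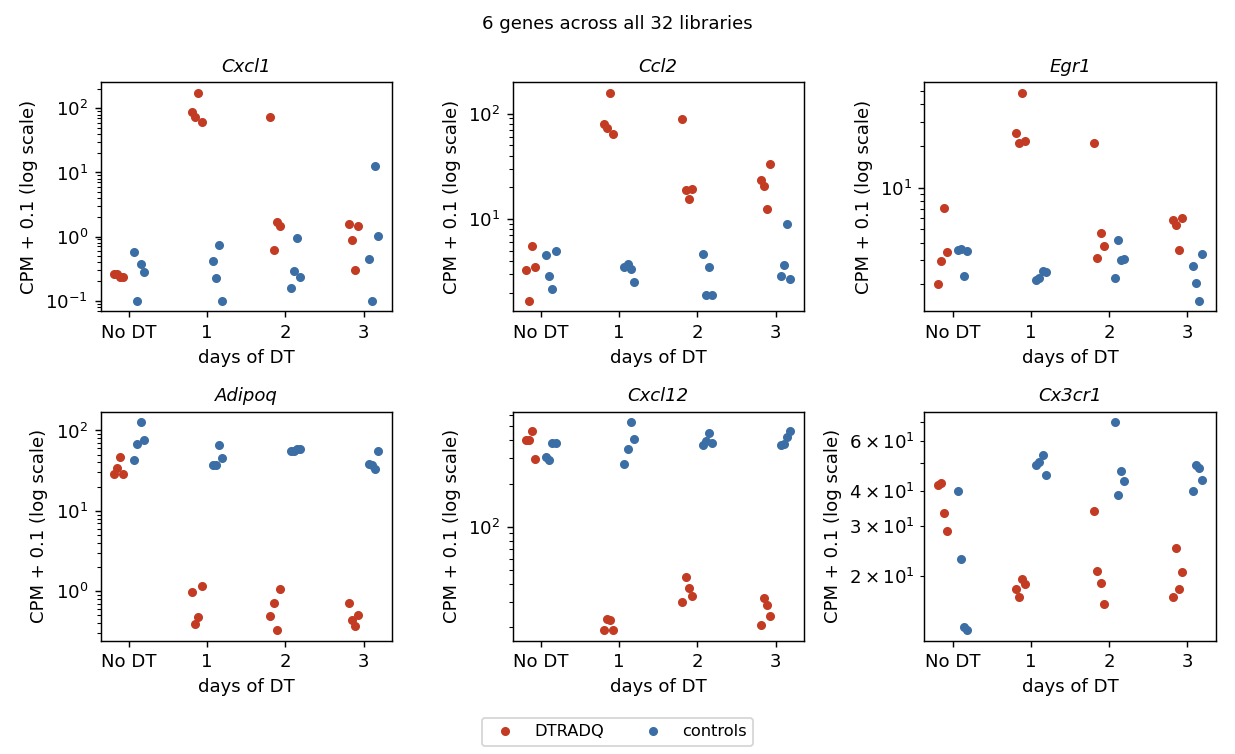
Level of 6 genes in all 32 libraries, as CPM plus 0.1 on a log scale, without DT and after 1, 2 and 3 days of DT, with DTRADQ left of controls at each time. Adipoq and Cxcl12 stay low in DTRADQ from day 1 on, and Cxcl1, Ccl2 and Egr1 are highest on day 1, with 1 high library on day 2.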

How the data were processed

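Per the labels' protocols, RNA of whole femur marrow was extracted with Trizol, cleaned with RNeasy and amplified with the Clontech SMARTer v1 kit. GRCm38, STAR 2.0.4b, featureCounts 1.45, Subread and bcl2fastq come from the submitters' processing notes. Annotation release, strand setting and handling of multiply mapped reads are not stated there. A raw count, a CPM and an RPKM per gene were deposited by the authors, per the file headers. CPM equalled counts over the library total (to 4.4e-10) and RPKM this over gene length (relative difference 3.8e-14), so counts were used.

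Counts of 41388 genes were read in R 4.3.3. Genes passing filterByExpr (minimum count 10) were scaled by TMM and tested by the two-sided quasi-likelihood test of edgeR 4.0.16 on the 8 libraries, with Benjamini-Hochberg adjustment and a threshold of 0.05. The standard error (SE) is the absolute log2 change over the root of F. Printed CPM are TMM-scaled over all 32 libraries. Alternatives used DESeq2 1.42.0 and voom of limma 3.58.1. Scripts were tested on simulated data. Within each of the 2 groups libraries differed by at least 12.1 chi-square units per gene, so none was a copy. All 8 libraries name the same run and all its lanes.

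The 12 largest rises and falls (mean log2 CPM of at least 1, separate groups), up to 3 called members per list and direction, and 18 fixed genes were eligible to be named, and a few other list members are named after their values were seen. One eligible gene is not reported here. The members, lists and genes were chosen with earlier results of these data known. 6 promoter motifs were searched (kappa B, spelled out above, TGANTCA, TGACGTCA, CCCNNGGG, TTGCNNAA and the CArG box).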

Additional observations from a re-analysis of the deposited data

Results flagged for a closer look

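Among 306 values tested in groups of 4 (named genes, list sums and library measures), 26 had 1 library set apart from the other 3 by a gap above Dixon's critical value, and chance alone sets apart about 1 group in 20. In mice given 1 day of DT, replicate 3 stood highest for Ccl2 (158 CPM), Ccn1 (13.45 CPM), Egr1 (48.45 CPM), Egr2 (10.47 CPM) and Tnc (17.27 CPM). In the same group replicate 1 stood apart for Cdc6 (224 CPM) and Pnpla2 (24.11 CPM). Replicate 2 did so for Igfbp5 (2.723 CPM), Pvalb (1.104 CPM), Tnnt3 (3.385 CPM), the summed T and NK cell list (467.1 CPM) and the summed skeletal muscle list (67.78 CPM). Replicate 4 did so for Phex (0.5711 CPM), Igkv4-90 (3.998 CPM) and the summed megakaryocyte and platelet list (4061 CPM).

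In mice without DT, replicate 4 stood apart for Bglap (21.08 CPM), Car3 (28.6 CPM), Irf7 (53.78 CPM), Lox (8.896 CPM), Nrgn (8.896 CPM), the mitochondrial share (3.192%) and the summed resident macrophage list (1059 CPM). Replicate 1 did so for Gzma (32.47 CPM), Mx1 (10.39 CPM) and the summed adipocyte and lipid storage list (535.4 CPM), and replicate 2 for Cebpe (42.12 CPM).

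Of 113 named genes, 39 had a change after DT that differed between DTRADQ mice and controls by the quasi-likelihood test of edgeR, 28 more negative and 11 more positive in DTRADQ. All 39 kept their calls without untreated control replicates 3 and 4. With 1 library left out at a time, 5 of the 39 lost theirs in some of 16 fits: Ccr2 in 14 (adjusted p up to 0.097), Cxcl10 in 12 (up to 0.107), Phex in 8 (up to 0.062), Fcer2a in 7 (up to 0.0691) and Cebpe in 4 (up to 0.0578). The more negative genes of the stroma list, as DTRADQ minus controls on the log2 scale, were Chrdl1 (-5.81), Grem1 (-5.52), Esm1 (-5.13), Adipoq (-4.93), Sfrp4 (-4.81), Igfbp5 (-4.78), Il34 (-4.43), Cxcl12 (-4.36), Lepr (-4.28), Sfrp1 (-3.85), Il7 (-2.96), Fstl1 (-2.13) and Kitl (-2.10). Genes named only for the size of their fall were Serpina3c (-6.55), Dpep1 (-5.82), Gdpd2 (-5.49), Fmo2 (-5.46), Slc26a7 (-5.42) and Kng2 (-4.86). Bone and matrix genes with a more negative change were Phex (-3.57), Ibsp (-2.32), Ogn (-2.21), Lox (-2.18), Fbn1 (-1.81) and Tnc (-1.46), and blood cell genes were Cx3cr1 (-2.11), Fcer2a (-2.04) and Ccr2 (-1.69). The more positive genes were Cxcl1 (9.29), Ccl7 (5.08), Ccl2 (4.99), Cxcl2 (3.79), Ccn1 (3.58), Egr1 (3.49), Jun (3.29), Tagln (2.38), Cxcl10 (2.18), Retnlg (1.96) and Cebpe (1.10). With 1 library left out, the rise in DTRADQ itself was at most 0.527 for Retnlg and 0.533 for Cebpe. Most of these 2 differences therefore lies in falls in controls. Ccr2 changed by -0.966 to -0.653 in DTRADQ in such fits, so part of its difference lies in a rise in controls.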

How the results depend on the processing

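The 1700 calls in DTRADQ, 712 higher and 988 lower, became 2819 (280 and 2539) with library totals only, an alternative chosen after seeing the data, and 796 (183 and 613) with all 8 groups in the model. The replicate numbers do not pair the mice (correlations of deviations -0.19, -0.07, 0.06 and -0.12), and a replicate block gave 1045 calls (432 and 613). DESeq2, its size factors, no filter, the 4 DTRADQ groups, 30 libraries and voom kept the count within 1.5 times. Of the 1700 genes, 1672 were shared with DESeq2, 1016 with the block and 720 with all 8 groups. List members called fell to 85 and named genes called to 66 with all 8 groups.

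Without single libraries the DTRADQ calls ranged from 1017 to 1680 (higher 375 to 745, lower 619 to 996), list members from 115 to 160 and named genes from 84 to 102. In controls the range was 2034 to 5489 (higher 939 to 2866, lower 1095 to 2623), and for the genotype difference 167 to 2796 (higher 53 to 1244, lower 114 to 1552). The low ends fell without untreated DTRADQ replicate 3 or treated replicate 3, without untreated control replicate 3, and without untreated DTRADQ replicate 1.

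Control calls became 5320 (4683 higher, 637 lower) with library totals only, and voom called 2519 higher. Difference calls, 454 in the report, were 1133 with DESeq2 (676 and 457), 3949 with library totals (84 and 3865), 1793 with all 8 groups (946 and 847), 2853 with voom (1261 and 1592) and 1057 without untreated control replicates 3 and 4 (506 and 551). The causes were not tested. Bglap, not called, ranged from -1.49 to 0.11 and Pparg from -0.19 to 0.10 without single libraries, with a sign change for Bglap without untreated replicate 4 (0.1069), and for Pparg without untreated replicate 3 (0.09536) or treated replicate 2 (0.07026). Over all named genes, 117 of the 904 leave-one-out values lost their call, as did 45 of 624 for the genotype difference. Genes with few counts in a group, such as Serpina3c, Grem1, Il7 and Phex, carry wide counting error.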

Other observations

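Of 3 groups of genes picked by name after their values were seen, the immunoglobulin V segments had the largest median change in DTRADQ. Of 148 tested, 53 rose and none fell after 1 day of DT in DTRADQ mice (median log2 change 0.82), against 712 of 13336 genes higher (5.34%). Igkv4-90, a kappa light chain segment, had 8.89, 8.24, 8.10 and 4.00 CPM after DT and 1.77, 0.840, 1.09 and 0.890 CPM without DT (log2 change 2.66). V segments share sequence, so the count of single segments is uncertain, and it was 43 with library totals only, 11 with all 8 groups in the model and 34 (without treated replicate 3) to 67 (without treated replicate 4) with 1 library left out. It was also 35 without untreated replicate 3. In controls none rose and 6 fell (median -0.39), while 11.7% of all genes rose and 12.3% fell there. The genotype difference was called for 3 segments, beside 3.25% of all genes. Without untreated control replicates 3 and 4 it was called for 40 segments, beside 7.30% of all genes.

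Of 81 cytosolic ribosomal protein genes, 36 fell and none rose in DTRADQ (median -0.42), against 7.41% of all genes lower. The falls were 62 with library totals only, 6 with all 8 groups in the model, 21 without treated replicate 3, 23 without untreated replicate 3 and 24 without untreated replicate 4. In controls 58 fell and 1 rose (median -1.17), against 12.3% of all genes lower there. The genotype difference was called for none by edgeR, beside 3.25% of all genes. Without untreated control replicates 3 and 4 it was called for 1, beside 7.30% of all genes. Of 16 genes of the mitochondrial genome 7 fell and none rose in DTRADQ (median -0.46), and 10 fell and none rose in controls (median -0.81). The 7 falls in DTRADQ were 3 without untreated replicate 4 or treated replicate 3 or 4, 11 with library totals only and 2 with all 8 groups in the model.

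The library labelled DTRADQ DT 2 days replicate 1 held 73.2 CPM of Cxcl1, 88.0 CPM of Ccl2 and 9.91 CPM of Tagln. The other 3 libraries of its group held 0.53 to 1.59 CPM of Cxcl1, 15.3 to 19.3 CPM of Ccl2 and 20.3 to 33.7 CPM of Tagln. The treated day 1 libraries held 61.3 to 176 CPM of Cxcl1, 63.4 to 158 CPM of Ccl2 and 5.43 to 8.86 CPM of Tagln.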
